A study of Mus musculus with 3 samples.

Results

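The 7 genes described here were 6 genes of the major histocompatibility complex (MHC) class II presentation machinery and the gene of their transcriptional coactivator. *H2-Aa*, *H2-Ab1* and *H2-Eb1* encode chains of the peptide-presenting dimers, *Cd74* encodes the invariant chain, *H2-DMa* and *H2-DMb1* encode the peptide exchange factor H2-DM, and *Ciita* encodes the class II transactivator. They were taken by symbol from the 32285 genes of the count tables, and each symbol was found once in each of 3 libraries. Each library was made by droplet-based 3′ single-cell RNA sequencing of cells digested from pooled aortic tissue of male C57BL/6J mice at postnatal day 45. The WT library came from 3 wild-type mice. The mgR library came from 3 mice homozygous for the mgR allele of *Fbn1* (*Fbn1mgR/mgR*), a hypomorphic allele of the fibrillin-1 gene that is used as a mouse model of severe Marfan syndrome. The mgR-LOS library came from 4 *Fbn1mgR/mgR* mice that drank losartan, a blocker of the angiotensin II type 1 receptor, at 0.6 g/L from postnatal day 16. The paper also describes vehicle-treated *Fbn1mgR/mgR* and wild-type mice, and vehicle is not stated for the mgR or the WT library. *H2-Ab1* lies at chr17:34257689-34269419 on the plus strand of GRCm38, *H2-Aa* at chr17:34282744-34287823 on the minus strand, and *H2-Eb1* at chr17:34305867-34316674 on the plus strand. *H2-DMa* (chr17:34119541-34139101, plus strand) and *H2-DMb1* (chr17:34153072-34160230, plus strand) lie in the same MHC region, and *Ciita* is on another chromosome (chr16:10480059-10528418, plus strand).

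MHC class II molecules display peptides from endocytosed proteins to CD4+ T cells. Their alpha and beta chains assemble in the endoplasmic reticulum with the invariant chain, which is cut in endosomes by cathepsins until H2-DM exchanges the remaining fragment for another peptide. Dendritic cells, B cells and part of the macrophages make class II constantly, and many other cells, including endothelial cells, can be induced to do so by interferon-gamma. CIITA does not bind DNA itself and acts through factors already bound at a shared promoter module with X and Y boxes. In mouse arteries, resident adventitial macrophages with LYVE1 and FOLR2 are known for low class II and other macrophages for high class II.

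Promoters of 4 of the 7 genes had an entry in the RefSeq promoter table for GRCm38.p6, which gives 250 bases before and 50 after each annotated start. The promoters of *H2-Aa*, *H2-Eb1* and *H2-DMb1* are shown because each held more than 1 of the motifs described here. Capitals mark matches on either strand to 3 short motifs chosen with these sequences in view. They were ATTGG, whose other strand reads CCAAT and which is the core of the Y box, AACNGATG, a pattern written from the X box region of these promoters, and TGACGTCA, the cAMP response element. None of the 3 motifs overlapped another in the sequences printed.
H2-Aa promoter, chr17:34287774-34288073, minus strand: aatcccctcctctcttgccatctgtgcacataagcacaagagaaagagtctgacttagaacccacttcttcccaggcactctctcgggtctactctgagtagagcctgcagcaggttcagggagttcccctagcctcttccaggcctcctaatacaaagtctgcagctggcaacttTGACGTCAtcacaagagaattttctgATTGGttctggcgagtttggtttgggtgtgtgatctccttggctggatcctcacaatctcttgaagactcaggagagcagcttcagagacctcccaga
H2-Eb1 promoter, chr17:34305617-34305916, plus strand: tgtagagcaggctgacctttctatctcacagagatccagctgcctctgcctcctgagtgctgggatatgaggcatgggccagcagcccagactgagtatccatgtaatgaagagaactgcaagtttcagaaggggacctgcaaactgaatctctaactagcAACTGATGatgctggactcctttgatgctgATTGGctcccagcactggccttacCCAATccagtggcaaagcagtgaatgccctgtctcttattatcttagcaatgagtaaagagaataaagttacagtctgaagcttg
H2-DMb1 promoter, chr17:34152941-34153240, plus strand: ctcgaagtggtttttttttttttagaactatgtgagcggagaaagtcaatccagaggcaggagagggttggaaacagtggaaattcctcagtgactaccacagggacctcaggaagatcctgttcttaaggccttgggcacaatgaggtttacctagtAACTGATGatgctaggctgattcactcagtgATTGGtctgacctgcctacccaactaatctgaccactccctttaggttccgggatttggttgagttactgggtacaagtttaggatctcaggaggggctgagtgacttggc

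With the start base counted as 0, *H2-Eb1* had AACNGATG at -89 to -82 and ATTGG at -59 to -55, and a second ATTGG on the other strand at -35 to -31. *H2-DMb1* had AACNGATG at -92 to -85 and ATTGG at -61 to -57. The motifs stood on the same strand in the same order, with 22 bases between them in *H2-Eb1* and 23 in *H2-DMb1*. *H2-Aa* had TGACGTCA at -74 to -67 and ATTGG at -48 to -44, and no AACNGATG. *H2-DMa* has 2 starts in the promoter table, with windows at chr17:34122582-34122881 and chr17:34125268-34125567. Both windows lie inside the gene interval given above and not at its first base. Other starts, and which start is used, were not examined. The window of one held none of the motifs, and that of the other held only an ATTGG at -198 to -194. Of 32851 promoters in the table, 12289 (37.4%) held ATTGG, 762 (2.32%) held AACNGATG and 588 (1.79%) held TGACGTCA. AACNGATG followed on the same strand by ATTGG, with 10 to 40 bases between, was present in 13 promoters (0.0396%). These 13 included *H2-Eb1* and *H2-DMb1* and their neighbors *H2-Eb2* and *H2-DMb2*, with 22 and 23 bases between. These matches describe the letters of the window only.

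The libraries held 7858 (WT), 10657 (mgR) and 14663 (mgR-LOS) barcodes with 83338726, 123956320 and 121436873 unique molecular identifiers (UMIs). A filter on the number of genes (600 to 5000) and the mitochondrial share (up to 10%) left 5361, 8076 and 12721 barcodes with medians of 13636, 12411 and 8334 UMIs. *Fbn1* was at 361, 150.1 and 117 CPM, or UMIs per 1000000 UMIs, over these barcodes, lower in both libraries labelled with the hypomorphic allele. Pairs of libraries shared 22 to 46 barcodes. Cells were assigned to 9 classes by counts of marker genes per barcode, with no class II gene among the markers. Of the barcodes kept, 5.52%, 16.5% and 10.3% fell in no class. Barcodes were ranked by an artificial-neighbor score, and the highest 4.29%, 6.46% and 10.2% were called doublets, which were kept in the values below. These percentages follow from an assumed rate and the number of barcodes, and are not measured doublet rates. The CPM of a gene in a class is taken over the UMIs of all its cells in that library, and the class II sum is the sum over the 6 genes other than *Ciita*. Intervals are 95% intervals, exact Poisson for CPM, exact binomial for shares and exact conditional binomial for ratios, and cover counting error only. With 1 library of pooled mice per group, no test between conditions was possible, and differences were not tested against the spread between mice. The mgR library enters both comparisons.

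In each library dendritic cells, macrophages and B cells stood above T cells, neutrophils and the structural cells in their class II sum. Dendritic cells, which prime naive T cells, had the highest sum in all 3 libraries, 36910 CPM in WT (7 cells), 46629 in mgR (147 cells) and 45728 in mgR-LOS (79 cells). Macrophages had 29582 CPM (29221-29945) in WT, 14006 (13926-14087) in mgR and 14697 (14577-14818) in mgR-LOS, from 90, 935 and 537 cells. B cells had 12935, 14877 and 11788 CPM from 5, 153 and 6 cells. In mgR and mgR-LOS, monocytes stood above macrophages, and in WT the 3 monocytes stood near the endothelial cells, as described below.

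Among structural cells, endothelial cells (ECs) had 752, 363 and 122 CPM, fibroblasts 197, 153 and 236 CPM and smooth muscle cells (SMCs) 15.1, 66.1 and 71.6 CPM in WT, mgR and mgR-LOS. ECs were thus the highest structural class in WT and mgR, and fibroblasts in mgR-LOS. T cells had 57.3, 1946 and 2567 CPM. Neutrophils had no UMI of the 6 genes in WT (4 cells) and mgR-LOS (12 cells), where 3 counts would be 184 and 148 CPM, and 437 CPM (338-554) in mgR (64 cells). Among classes with UMIs, neighbors in this order whose intervals overlapped were WT ECs (694-814) and monocytes (210-1075), and mgR neutrophils and ECs (335-393). The upper limits of neutrophils, 226 CPM in WT and 182 in mgR-LOS, lay above fibroblasts, T cells and SMCs in WT and above ECs and SMCs in mgR-LOS.

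**Figure D1:**
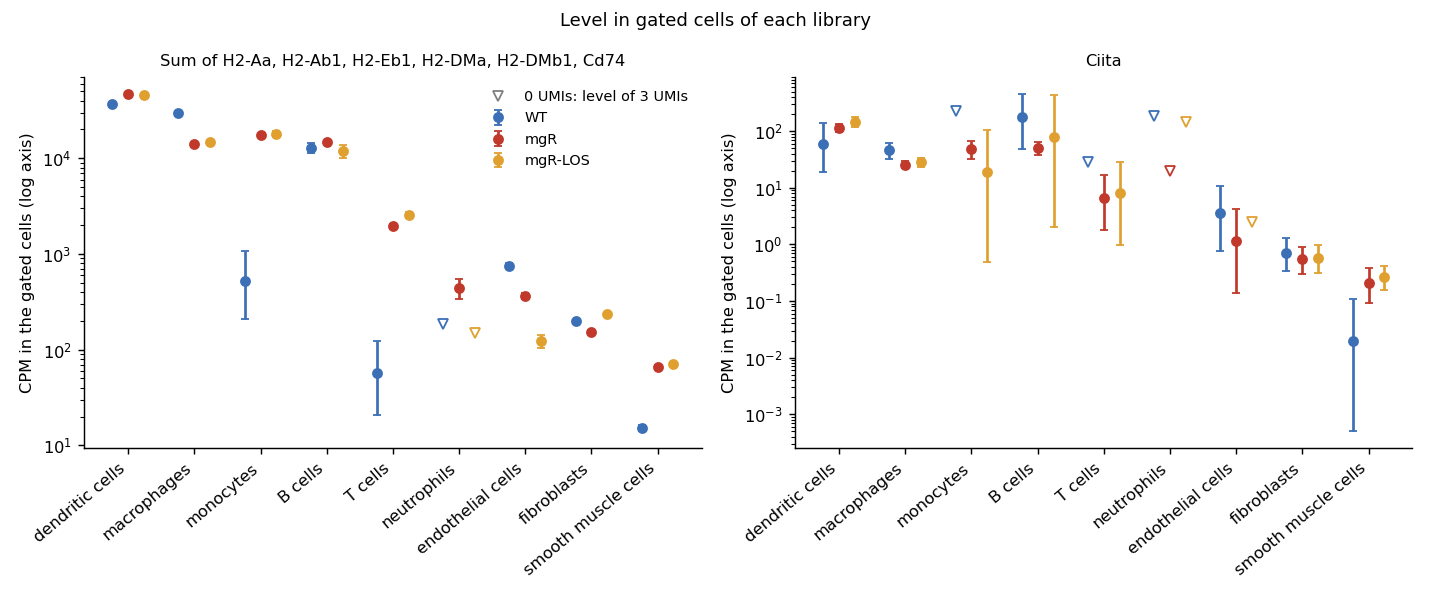
Class II sum (left) and Ciita (right) in each cell class of each library, in CPM on a log axis, with exact Poisson 95% intervals, and open triangles at the level of 3 UMIs for classes with no UMI. Dendritic cells, macrophages and B cells stand above all structural cells in both panels, and in WT the class II sum runs from 36910 CPM in dendritic cells to 15.1 CPM in SMCs.

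Macrophages held the largest share of the class II UMIs among the classes of each library. It was 71.1% in WT, 44.6% in mgR and 44.5% in mgR-LOS, although they were few among the cells. Dendritic cells held 8.65%, 27.8% and 26.3%, and B cells 0.80%, 6.93% and 0.12%. Fibroblasts held 7.74%, 1.64% and 4.47%, SMCs 2.13%, 1.12% and 3.83%, and ECs 1.72%, 0.24% and 0.11%. Shares of a library depend on how many cells of each class were recovered, and cell recovery cannot be told apart from tissue composition here.

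In macrophages, defined by complement C1q genes, *Csf1r*, *Adgre1* and other markers, the class II genes were lower in mgR than in WT. The alpha chain gene *H2-Aa* was at 5449, 2650 and 2588 CPM in WT, mgR and mgR-LOS. WT was high, and mgR and mgR-LOS lay close together. The mgR/WT ratio was 0.486 (0.471-0.502). The beta chain gene *H2-Ab1*, whose product pairs with that of *H2-Aa* to form I-A, was at 5501, 2415 and 2459 CPM, with a ratio of 0.439 (0.425-0.453). *H2-Eb1*, the beta chain gene of I-E, was at 5349, 2367 and 2194 CPM, with a ratio of 0.443 (0.429-0.457). C57BL/6 mice are known to lack I-E at the cell surface because their *H2-Ea* gene is not expressed, and *H2-Ea* was not analysed here. All 3 chain genes thus had the same pattern, with WT above both *Fbn1mgR/mgR* libraries.

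*Cd74*, at chr18:60803848-60812652 on the plus strand, was at 12673 CPM in WT macrophages, 6179 in mgR and 6985 in mgR-LOS, with an mgR/WT ratio of 0.488 (0.478-0.498). The invariant chain gene therefore fell with the chain genes it serves, and took 42.8%, 44.1% and 47.5% of the class II sum. The peptide exchange genes differed less between libraries. *H2-DMa* was at 332, 227 and 263 CPM, with an mgR/WT ratio of 0.682 (0.602-0.774), and *H2-DMb1* at 278, 169 and 207 CPM, with a ratio of 0.607 (0.529-0.699). Their intervals lay above those of the 3 chain genes. *H2-DMb1* has a close relative, *H2-DMb2*, at 15.0, 7.27 and 8.47 CPM in macrophages, and how reads that fit both were counted was not examined. *Ciita*, the coactivator of the other 6, was at 46.0, 25.6 and 28.5 CPM from 40, 211 and 111 UMIs, with a ratio of 0.556 (0.395-0.80).

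Between mgR-LOS and mgR, the macrophage differences were small and went both ways. The class II sum had a ratio of 1.05 (1.04-1.06), *Cd74* of 1.13 (1.11-1.15), *H2-DMa* of 1.16 (1.08-1.25) and *H2-DMb1* of 1.23 (1.12-1.34). *H2-Eb1* was lower in mgR-LOS (0.927, 0.904-0.951). For *H2-Aa* the ratio was 0.977 (0.954-1.00), for *H2-Ab1* 1.02 (0.994-1.04) and for *Ciita* 1.11 (0.877-1.41), and all 3 intervals included 1. The class II sum in mgR-LOS was 0.497 (0.490-0.504) of that in WT.

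Against all genes at 20 CPM or more in either library, a macrophage difference of this size was uncommon. Between mgR and WT, 6 of the 7 genes were lower by at least 1.5-fold, all but *H2-DMa*, beside 4.40% of 5679 genes tested, and none was higher, beside 8.56%. The median log2 ratio was -1.04 for the 7 genes and 0.07 for all genes. Between mgR-LOS and WT, 5 of the 7 were lower (5.19% of all genes), all but *H2-DMa* and *H2-DMb1*. Between mgR-LOS and mgR, none of the 7 was higher (3.80%) or lower (2.65%) by this margin.

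**Figure D2:**
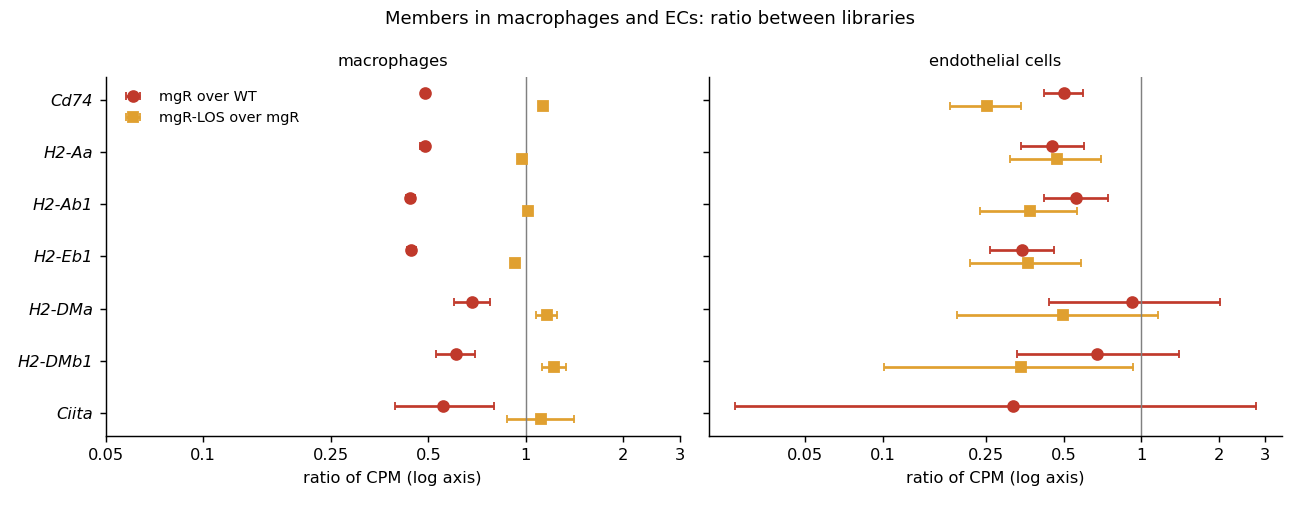
Ratios of CPM between libraries for each of the 7 genes in macrophages (left) and ECs (right), on a log axis, with exact conditional binomial 95% intervals and a line at 1; Ciita, at 0 UMIs in mgR-LOS ECs, has no mgR-LOS/mgR mark there. In macrophages all mgR/WT ratios lie between 0.439 and 0.682 and the mgR-LOS/mgR ratios between 0.927 and 1.23.

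Between mgR and WT macrophages, genes of antigen presentation outside the 7 differed by 1.5-fold at shares near those over all genes. Of a list of 33 such genes, 32 were read here and 21 reached 20 CPM in macrophages of WT or mgR. *March1*, whose product ubiquitinates class II and sends it to lysosomes, was higher in mgR (36.8, 65.2 and 68.8 CPM; mgR/WT ratio 1.77, 1.24-2.62), 1 of 21 beside 8.56% of all genes. *Cd80*, a costimulatory ligand of CD28, was lower (43.7, 20.2 and 19.5 CPM; ratio 0.463, 0.324-0.677), 1 of 21 beside 4.40%. The other 19 differed by less than 1.5-fold, with a median log2 ratio of -0.06 over the 21. Between mgR-LOS and mgR, none of the 21 tested differed by this margin in either direction. Between mgR-LOS and WT, 3 of 21 tested, *Cd80*, *Cd40* and *H2-D1*, were lower, beside 5.19% of all genes. Another 3, *March1*, *Creb1* and *Irf1*, were higher, for which the share over all genes was not taken. Cathepsin S (*Ctss*), which cuts the invariant chain, was at 1458, 1399 and 1543 CPM, and *Ifi30*, a lysosomal thiol reductase, at 357, 357 and 371 CPM. The class I genes *H2-K1*, *H2-D1* and *B2m* had mgR/WT ratios of 0.879 (0.827-0.934), 0.755 (0.721-0.792) and 1.00 (0.964-1.04). Their mgR-LOS/WT ratios were 0.679 (0.636-0.726), 0.604 (0.574-0.636) and 0.784 (0.751-0.817). Among regulators, *Rfx5*, a subunit of the factor on the X box, had 8.05, 5.94 and 4.62 CPM and was under the limit, and *Irf8* had 135, 137 and 124 CPM. The class II sum thus differed more between mgR and WT than *Ctss*, *Ifi30*, *Irf8* or the class I genes.

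Single macrophages differed widely in class II. The class II sum took a median of 3.17% of the UMIs of a WT macrophage, 0.301% in mgR and 0.342% in mgR-LOS. The middle 50% of cells ranged from 0.447 to 5.84% in WT, from 0.0311 to 2.85% in mgR and from 0.0331 to 2.93% in mgR-LOS. The upper part was also higher in WT, with 90% of cells below 7.29%, 4.50% and 4.98%. The maxima were 10.9%, 11.6% and 11.6%, and rest on unlike numbers of cells. Macrophages with 1% or more were 66.7% (55.9-76.3) of WT, 40.5% (37.4-43.8) of mgR and 37.8% (33.7-42.1) of mgR-LOS cells. The lower sums in mgR and mgR-LOS therefore came with a smaller share of high cells. Cells at 3% or more were 51.1%, 23.1% and 24.4%, while those from 1 to 3% were 15.6%, 17.4% and 13.4%. Macrophages with no class II UMI at all were 6.67%, 9.20% and 10.2%. Median depths were 9132, 8356 and 6525 UMIs. After thinning each cell to 1000 UMIs, 83.3%, 67.2% and 68.3% had a class II UMI, against 93.3%, 90.8% and 89.8% before thinning. One mgR macrophage was too shallow to thin. For comparison, T cells, at median depths of 4718, 4341 and 3845 UMIs, gave 0%, 12.2% and 6.67% after thinning and 25%, 36.5% and 25% before.

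**Figure D3:**
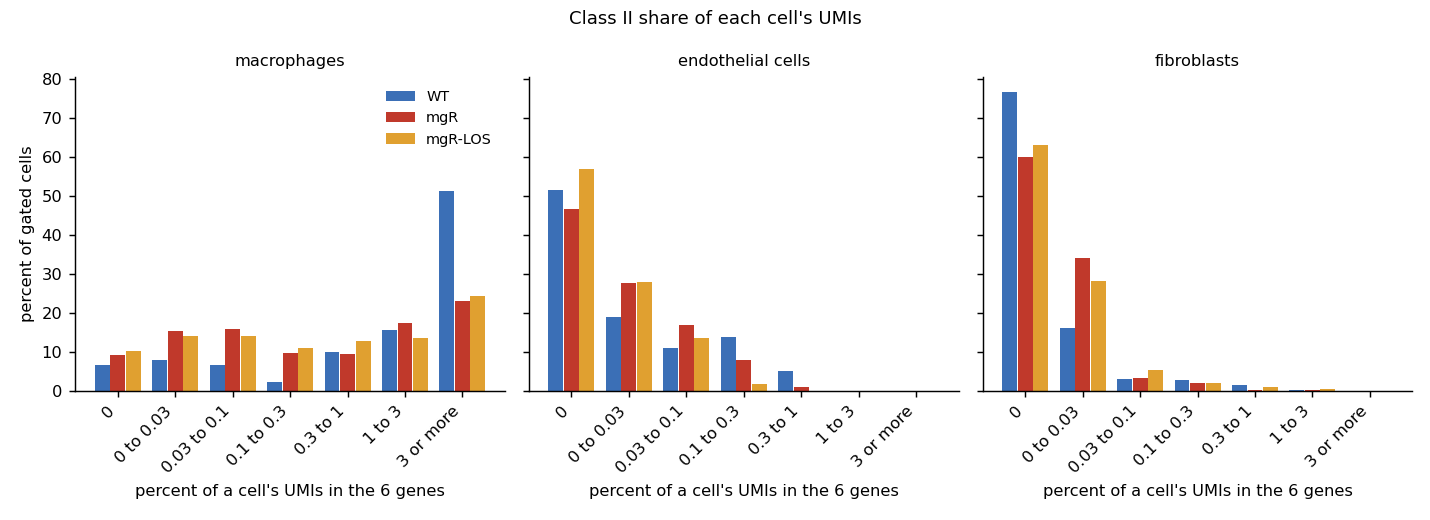
Percent of gated macrophages, ECs and fibroblasts of each library (bars) by the percent of a cell's UMIs that fell on the class II sum. In macrophages both ends of the range hold cells in every library, and the share of cells at 1% or more is 66.7% in WT, 40.5% in mgR and 37.8% in mgR-LOS.

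Macrophages with a *Ciita* UMI had more class II than those without. The medians were 5.63% and 1.54% in WT (26 and 64 cells), 3.62% and 0.153% in mgR (123 and 812 cells), and 3.57% and 0.164% in mgR-LOS (76 and 461 cells). In each library the cells with a *Ciita* UMI were also somewhat deeper, with medians of 9358 and 8944 UMIs in WT, 8616 and 8290 in mgR, and 7603 and 6348 in mgR-LOS. The part of depth in this difference was not tested. All 26 WT cells with *Ciita*, 90.2% of the mgR cells and 84.2% of the mgR-LOS cells had class II at 1% or more, against 53.1%, 33.0% and 30.2% of those without.

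Both resident-type and other macrophages had less class II in mgR than in WT. Macrophages with 4 or more of 6 resident markers (*Folr2*, *Lyve1*, *F13a1*, *Cbr2*, *Timd4* and *Gas6*) were 53, 437 and 300 cells, or 58.9%, 46.7% and 55.9% of macrophages. Their class II sum was 22063, 7099 and 5330 CPM, with an mgR/WT ratio of 0.322 (0.315-0.329) and an mgR-LOS/mgR ratio of 0.751 (0.735-0.767). Macrophages with fewer of these markers had 40215, 20955 and 27088 CPM, with ratios of 0.521 (0.512-0.530) and 1.29 (1.28-1.31). Between mgR-LOS and mgR the subsets thus went in opposite directions, and the difference between them was not tested. With the subsets weighted in every library by their WT shares, the mean class II share per cell was 3.36%, 1.33% and 1.52%, against 3.36%, 1.49% and 1.58% unweighted. These weights rest on 53 and 37 WT cells, and the part of the subset mix in the mgR/WT difference was not tested. A count of detected markers is a range and not a cell type, and shallower cells show fewer markers.

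**Figure D4:**
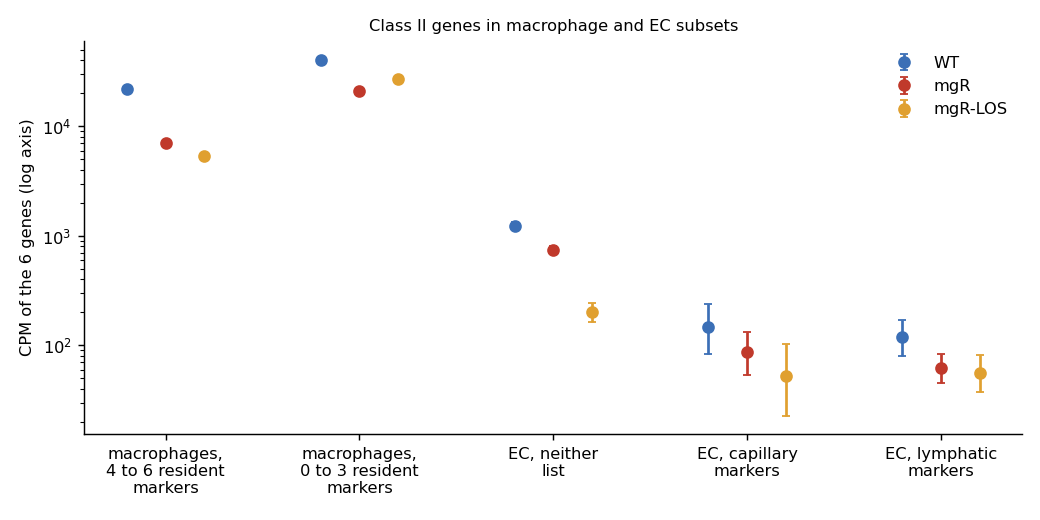
Class II sum, in CPM on a log axis, in macrophages split by resident markers and in ECs split by lymphatic and capillary markers, in each library, with exact Poisson 95% intervals. Macrophages with 4 or more resident markers lie below the others in each library, and ECs outside both marker lists lie highest among ECs, at 1237, 748 and 201 CPM.

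Across the 934 mgR macrophages with at least 1000 UMIs, thinned to that depth, the genes that went most with the class II sum were *Il1b* (Pearson r = 0.30), *Cd52* (0.26), *Psap* (0.23), *Lst1* (0.23) and *Rgs1* (0.21) among 584 genes seen in at least 20% of the cells. The same genes had r of 0.43, 0.33, 0.09, 0.09 and 0.26 over 90 WT cells, and 0.41, 0.30, 0.20, 0.07 and 0.26 over 537 mgR-LOS cells. *Il1b* encodes interleukin-1 beta, and *Cd52* a small surface glycoprotein of leukocytes. *Lst1* was thus near 0 outside mgR. At the other end were *Lyve1* (-0.35), *Pf4* (-0.33), *F13a1* (-0.31), *C4b* (-0.27) and *Cbr2* (-0.27). *Lyve1*, *F13a1* and *Cbr2* are also in the resident marker list. *Lyve1*, a hyaluronan receptor, had r of -0.40 in WT and -0.41 in mgR-LOS. *F13a1*, coagulation factor XIII subunit A, had -0.46 and -0.41. *C4b*, complement C4, was negative in mgR-LOS (-0.22) and positive in WT (0.11). Cells of a library share its depth and free RNA, thinned counts are sparse, and these correlations are descriptions without a test.

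Monocytes, the circulating precursors of many macrophages, could be described in mgR and mgR-LOS only. The WT library held 3 cells in this gate, with no UMI of the classical monocyte genes *Ly6c2*, *Ccr2*, *Chil3* or *Ms4a4c* and with *Treml4*, *Itgal* and *Ace* in each, which are markers of patrolling monocytes. These 3 cells had no UMI of *H2-Aa*, *H2-Ab1* or *H2-Eb1*, 5 of *Cd74* and 1 each of *H2-DMa* and *H2-DMb1*, a class II sum of 522 CPM. The 105 mgR cells carried *Ly6c2* in 78.1% and *Ccr2* in 87.6%, and had 3279 CPM of *H2-Aa*, 3638 of *H2-Ab1*, 2918 of *H2-Eb1*, 6936 of *Cd74*, 391 of *H2-DMa*, 324 of *H2-DMb1* and 47.8 of *Ciita*. The 12 mgR-LOS cells had 3483, 3444, 2155, 8062, 346, 462 and 19.2 CPM of the same genes, the last from 1 UMI. The mgR-LOS/mgR ratio of the sum was 1.03 (0.959-1.10), and 0.808 (0.715-0.911) when 1 more marker was required, which left 7 and 87 cells. The cells of these libraries also differed in markers. *Ly6c2* was seen in 50% of the mgR-LOS cells, at 558 CPM against 3441 in mgR. *Ccr2* went the other way, at 1424 CPM in mgR-LOS and 826 in mgR. The mgR/WT ratio of the sum was 33.5 (16.3-83.4) and likewise sets cells with different markers side by side. Like macrophages, mgR monocytes were spread, with a median of 0.457% of UMIs, 10.5% of cells at 0 and 38.1% at 1% or more.

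Dendritic cells differed from macrophages in that almost every cell was high. Class II was at 1% of UMIs or more in 7 of 7 WT, 140 of 147 mgR and 78 of 79 mgR-LOS cells, with medians of 3.67%, 4.93% and 4.72%. The class II sum was higher in mgR than in the 7 WT cells (ratio 1.26, 1.22-1.31) and about equal between mgR-LOS and mgR (0.981, 0.968-0.993). *Ciita* was at 59.0 CPM in WT (5 UMIs), 114 in mgR and 147 in mgR-LOS. The cells differed in markers between libraries. *Xcr1* and *Clec9a*, of cross-presenting dendritic cells, were seen in 57.1% and 71.4% of WT cells and in 14.3% and 25.9% of mgR cells, and *Cd209a* in 28.6% and 59.9%. In contrast to macrophages, the class II sum in dendritic cells was not lower in mgR.

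B cells, gated on *Cd79a*, *Ms4a1*, immunoglobulin genes and others, were numerous in mgR only. The 153 mgR cells had 2662 CPM of *H2-Aa*, 2582 of *H2-Ab1*, 2298 of *H2-Eb1*, 6952 of *Cd74*, 304 of *H2-DMa*, 79.5 of *H2-DMb1* and 49.7 of *Ciita*, and 151 of them had class II at 0.1% of UMIs or more. The 5 WT cells had a sum of 12935 CPM (11491-14510), and the 6 mgR-LOS cells, of which 5 were called doublets, 11788 CPM (9977-13832). With so few cells, the ratios of 1.15 (1.02-1.30) for mgR/WT and 0.792 (0.670-0.930) for mgR-LOS/mgR rest on few cells. The former was 0.506 with at most 5% mitochondrial UMIs, which left 1 WT cell, and the latter 0.982 with 1 more marker required, which left 4 mgR-LOS cells. The balance of the DM genes was another one in B cells. The ratio of *H2-DMb1* to *H2-DMa* UMIs was 0.262 (0.207-0.328) in mgR B cells, from 96 and 367 UMIs, against 0.745 (0.695-0.799) in mgR macrophages and 0.832 (0.762-0.907) in mgR dendritic cells. The paralog *H2-DMb2* had 356 UMIs in mgR B cells, more than *H2-DMb1*, and 60 in mgR macrophages. With both beta chain genes counted, the ratio to *H2-DMa* was 1.23 (1.07-1.42) in mgR B cells, 0.778 (0.726-0.833) in mgR macrophages and 1.04 (0.957-1.13) in mgR dendritic cells, so that, of these 3 classes, B cells were lowest for *H2-DMb1* alone and highest for both, and the interval for both overlapped that of dendritic cells and not that of macrophages. How reads that fit both *H2-DMb1* and *H2-DMb2* were counted, and what this did to these ratios, was not examined.

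ECs, which line the vessel and are not professional antigen-presenting cells, had less class II in mgR than in WT and least in mgR-LOS. *H2-Aa* was at 133, 60.3 and 28.3 CPM, *H2-Ab1* at 116, 65.0 and 24.2, *H2-Eb1* at 147, 50.5 and 18.3, and *Cd74* at 323, 162 and 40.8. For each of these 4 genes WT was highest and mgR-LOS lowest. The sum had a ratio of 0.483 (0.431-0.540) for mgR/WT and 0.337 (0.280-0.404) for mgR-LOS/mgR. *H2-DMa* at 14.5, 13.3 and 6.66 CPM, *H2-DMb1* at 18.2, 12.2 and 4.17 CPM and *Ciita* with 3, 2 and 0 UMIs were too low for the count of genes past 1.5-fold, for which 20 CPM were required. The other 4 were all lower by at least 1.5-fold, between mgR and WT beside 6.59% of 6788 genes and between mgR-LOS and mgR beside 8.59% of 6786. EC numbers were 101, 206 and 162 cells and median depths 6924, 8000 and 5688 UMIs.

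In WT and mgR, but not in mgR-LOS, few ECs carried most of the class II UMIs. Gated ECs with class II at 0.1% of UMIs or more were 19 of 101 in WT (18.8%, 11.7-27.8), 18 of 206 in mgR (8.74%, 5.26-13.5) and 3 of 162 in mgR-LOS (1.85%, 0.383-5.32). They held 91.6%, 69.8% and 19.7% of the EC class II UMIs. No EC reached 1%. These cells also carried EC markers, since the gate required 4 of 8. No UMI of 9 genes typical of leukocytes (*Ptprc*, *Tyrobp*, *Fcer1g*, *Laptm5*, *Cd52*, *Lyz2*, *C1qa*, *C1qb* and *C1qc*) was seen in 17 of 19, 11 of 18 and 3 of 3 of them, and *Ptprc*, the common leukocyte antigen, had 0, 8 and 5 UMIs over all ECs. *Ciita* was seen in 2 of the 19 WT and 2 of the 18 mgR cells and in none of the ECs below 0.1%. ECs below 0.1% had 80.2, 121 and 99.8 CPM, which did not follow the order of the libraries in the whole class. Over all ECs, the C1q genes were at 12.1, 11.6 and 20 CPM and *Lyz2*, another gene of myeloid cells, at 3.63, 126 and 19.2 CPM, and neither followed the order of the class II sum. The part of free RNA in the EC values was not tested.

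The EC difference in CPM was largest outside the lymphatic and capillary marker lists, where the level was highest. ECs with neither list (54, 97 and 84 cells) had 1237, 748 and 201 CPM, with ratios of 0.604 (0.537-0.680) for mgR/WT and 0.269 (0.217-0.330) for mgR-LOS/mgR. Capillary-marker ECs (15, 28 and 20 cells) had 146, 87.3 and 52.5 CPM, with ratios whose intervals included 1 (0.598, 0.297-1.23, and 0.602, 0.231-1.41). Lymphatic-marker ECs (32, 81 and 58 cells) had 119, 62.5 and 56.5 CPM, with ratios of 0.524 (0.324-0.859) and 0.904 (0.544-1.48). For mgR/WT the intervals of the subset ratios overlapped, and the whole-class ratio of 0.483 lay below each of these ratios. ECs with neither list were 54 of 101 in WT and 97 of 206 in mgR, and the part of this mix in the class ratio was not tested. Barcodes with EC markers that were held out because they also carried markers of another lineage numbered 4, 50 and 35. They had 15.7, 1077 and 183 CPM. Of them, 0 of 4 in WT, 29 of 50 in mgR (58%) and 2 of 35 in mgR-LOS passed the limit used above for positive ECs. Including them would raise the positive share in mgR and lower it in WT, so the lower mgR share depended on the gate. The paper's EC4 cluster, found in *Fbn1mgR/mgR* and not in wild-type aortas, also carries SMC, fibroblast and class II genes. The paper merges EC4 with an SMC cluster and reports the merged cells absent from *Fbn1mgR/mgR* aortas after losartan. Whether the held-out barcodes belong to EC4 was not tested. With the held-out barcodes included, the mgR/WT ratio of ECs was 0.749 (0.679-0.827) in place of 0.483. Its size, though not its direction, depended on the limit on other lineages. In the antigen presentation list, 15 genes reached 20 CPM in ECs. Between mgR and WT, *Lgmn*, which encodes legumain, was higher by at least 1.5-fold (137 and 206 CPM, beside 12.0% of all genes higher), and *Nfya*, a subunit of the Y box factor, was lower (31.5 and 20.3 CPM; ratio 0.645, 0.377-1.12), 1 of 15 beside 6.59%. Between mgR-LOS and mgR, 3 of 15, *Lgmn*, *Cd40* and *B2m*, were lower (8.59% of all genes) and none was higher (7.66%). *B2m*, the light chain of class I, was at 2105, 1971 and 1220 CPM.

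SMCs, the contractile cells of the media and the largest class, had low class II. *H2-Aa* was at 1.80, 12.0 and 12.9 CPM in WT, mgR and mgR-LOS, *H2-Ab1* at 2.37, 13.2 and 14.2, *H2-Eb1* at 2.10, 11.5 and 10.9, and *Cd74* at 5.29, 25.9 and 29.8. WT was low for all of these, and mgR and mgR-LOS lay close together. The mgR/WT ratio of the sum was 4.39 (4.05-4.76) and the mgR-LOS/mgR ratio 1.08 (1.03-1.13). These 4 genes, the only members at 10 CPM or more, were all higher by at least 1.5-fold in mgR, beside 4.77% of 7592 genes. *H2-DMa* was at 0.842, 1.75 and 1.85 CPM, and *Ciita* had 1, 9 and 18 UMIs.

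A small number of SMC barcodes carried much of this sum. Class II was at 0.1% of UMIs or more in 6 of 3578 WT, 17 of 2842 mgR and 20 of 7646 mgR-LOS SMCs, which held 11.7%, 54.1% and 42.6% of the UMIs. In mgR and mgR-LOS, 11 of 17 and 13 of 20 of these barcodes had 2 or more UMIs of the 9 leukocyte genes. Without such barcodes the mgR/WT ratio was 2.10 (1.92-2.30) and the mgR-LOS/mgR ratio 1.39 (1.30-1.48), and without called doublets they were 2.17 and 1.62. Below 0.1% the sum was 13.3, 30.4 and 41.2 CPM. In these barcodes it was 3.31 (2.83-3.89), 2.77 (2.49-3.08) and 2.64 (2.46-2.84) times the sum of *C1qa*, *C1qb* and *C1qc*, macrophage genes that SMCs should lack, against 2.94, 2.30 and 2.29 times over all barcodes of each library. The C1q genes were at 4.09, 11.2 and 15.7 CPM in SMCs and moved between libraries in the same direction as the class II sum. The part of free RNA in the SMC values was not tested.

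*H2-DMb1* did not follow the other genes in SMCs. It had 136, 76 and 127 UMIs (2.66, 1.73 and 1.85 CPM), highest in WT, and an mgR/WT ratio of 0.650 (0.484-0.866). The ratio of *H2-DMb1* to *H2-DMa* UMIs was 3.16 (2.23-4.57) in WT SMCs, 0.987 (0.709-1.37) in mgR and 1.00 (0.776-1.29) in mgR-LOS. For each *Cd74* UMI there were 0.504 (0.407-0.621) *H2-DMb1* UMIs in WT SMCs, against 0.0220 (0.0193-0.0249) in WT macrophages. WT SMCs thus carried far more *H2-DMb1* per *Cd74* than WT macrophages did. WT fibroblasts lay between, at 0.189 (0.156-0.226). In mgR and mgR-LOS the values were 0.0668 (0.0522-0.0843) and 0.0619 (0.0513-0.0741) in SMCs. In macrophages of these libraries they were 0.0273 (0.0259-0.0288) and 0.0296 (0.0276-0.0318). The large excess was thus seen in WT only.

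Fibroblasts, the collagen-producing cells of the adventitia, had class II sums of 197 (190-205), 153 (148-158) and 236 (230-242) CPM from 1257, 2176 and 2894 cells. The mgR/WT ratio was 0.774 (0.738-0.812) and the mgR-LOS/mgR ratio 1.54 (1.48-1.61). *H2-Aa* was at 35.1, 26.2 and 39.4 CPM, *H2-Ab1* at 54.4, 39.1 and 53.5, *H2-Eb1* at 40.1, 29.6 and 42.7, and *Cd74* at 52.0, 47.3 and 86.1. For these 4 genes mgR was lowest. None of the 4, which alone reached 10 CPM, was lower by 1.5-fold in mgR than in WT (4.19% of 8419 genes were). *H2-DMa* was at 6.13, 4.76 and 5.91 CPM and *H2-DMb1* at 9.80, 5.95 and 8.46 CPM, and *Ciita* had 10, 15 and 14 UMIs. The direction of the mgR/WT difference depended on the limit on other lineages, without which the ratio was 1.12 (1.08-1.17). The ratio was 0.596 without called doublets and 0.550 (0.522-0.581) without positive barcodes that had 2 or more leukocyte UMIs.

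The balance of class II genes in fibroblasts was not that of macrophages. *Cd74* took 26.3% (24.7-28.0), 30.9% (29.5-32.3) and 36.5% (35.2-37.7) of the class II sum in fibroblasts, against 42.8%, 44.1% and 47.5% in macrophages. *H2-Ab1* had 1.55 (1.38-1.74), 1.49 (1.36-1.64) and 1.36 (1.25-1.48) UMIs per *H2-Aa* UMI, against 1.01 (0.970-1.05), 0.911 (0.894-0.929) and 0.95 (0.924-0.977) in macrophages. The ratio of *H2-DMb1* to *H2-DMa* was 1.60 (1.21-2.11), 1.25 (0.988-1.58) and 1.43 (1.15-1.78), against 0.837 (0.703-0.997), 0.745 (0.695-0.799) and 0.787 (0.716-0.863). In each library and for each of these measures, the intervals of fibroblasts and macrophages did not overlap.

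A minority of fibroblasts carried most of it. Class II was at 0.1% of UMIs or more in 53 of 1257 WT (4.22%, 3.17-5.48), 56 of 2176 mgR (2.57%, 1.95-3.33) and 99 of 2894 mgR-LOS fibroblasts (3.42%, 2.79-4.15). These cells held 79.7%, 67.9% and 72.9% of the class II UMIs of the class. At most 1 UMI of the 9 leukocyte genes was seen in 48 of 53, 44 of 56 and 89 of 99, and those cells held 73.8%, 34.8% and 43.8% of the class II UMIs of the class. In mgR and mgR-LOS the few positive barcodes with more leukocyte UMIs thus carried a large share. *Ciita* was seen in 7, 6 and 8 of the positive cells, at 11.6, 10.0 and 11.8 CPM. In those with at most 1 leukocyte UMI it had 7, 5 and 5 UMIs, at 11.2, 9.12 and 6.77 CPM. The fibroblasts below 0.1% had 0.148, 0.296 and 0.170 CPM of *Ciita*. Below that limit the class II sum was 42.2, 50.3 and 66.4 CPM, or 10.8 (8.11-14.5), 3.75 (3.33-4.22) and 4.03 (3.61-4.52) times the C1q sum, above the 2.94, 2.30 and 2.29 times over all barcodes.

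The class II positive fibroblasts shared other genes. Those with at most 1 leukocyte UMI had medians of 2.09%, 2.28% and 2.53% of UMIs in the fibroblast markers. Fibroblasts below the limit had 3.25%, 2.43% and 3.36%. The median number of fibroblast markers seen was 7, 7 and 6 of 8, against 8, 7 and 8 below the limit, and the gate required 6. In WT, the 10 genes with the largest excess in positive fibroblasts with at most 1 leukocyte UMI over fibroblasts below the limit were chosen among 1524 genes at 100 CPM or more, and their WT values are the basis of that choice. They were then read in the libraries not used for the choice. *Rspo3*, a Wnt pathway agonist, was 9.47-fold higher in WT, and 10.5-fold (8.62-12.8) in mgR and 8.78-fold (7.63-10.1) in mgR-LOS. *Clca3a2* was 70.0-fold higher in WT, 50-fold (35.4-70.8) in mgR and 31.4-fold (22.0-44.8) in mgR-LOS. *Trf*, which encodes transferrin, was 6.93-fold, 10.5-fold (9.47-11.6) and 8.96-fold (8.40-9.55) higher. *Sele*, the adhesion molecule E-selectin, was 17.9-fold, 7.45-fold (6.18-8.92) and 10.5-fold (9.16-12.0) higher, and *Bmp5*, a bone morphogenetic protein, 27.6-fold, 25.9-fold (16.2-40.7) and 15.7-fold (10.7-22.9). *Myoc*, *Rgs5*, *Enpp2*, *Ptn* and *Id4* were 3.13- to 8.72-fold higher in mgR and mgR-LOS. All 10 were thus higher in the positive cells of both libraries not used for the choice, with intervals above 1. These are ratios of summed UMIs, and many positive cells had no UMI of a given gene. The share of positive cells with a UMI ran from 27.3% (*Clca3a2* and *Bmp5*) to 93.2% (*Ptn*) in mgR. In mgR-LOS it ran from 21.3% (*Clca3a2*) to 88.8% (*Trf*).

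Fibroblasts with 5 or more of these 10 genes were 123 (9.79%), 129 (5.93%) and 244 cells (8.43%). The class II sum in them was 1245 (1193-1299), 1409 (1354-1467) and 1097 (1055-1140) CPM, and 35.8%, 29.5% and 27.5% were class II positive. In the other fibroblasts it was 54.9, 70.1 and 144 CPM, and 0.794%, 0.879% and 1.21% were positive. Within the first group the mgR/WT ratio was 1.13 (1.07-1.20) and the mgR-LOS/mgR ratio 0.778 (0.736-0.823). In the others these ratios were 1.28 (1.17-1.40) and 2.05 (1.93-2.17). The 10 genes were counted without thinning, and shallower cells show fewer of them. Median depths were 13703, 13167 and 9325.5 UMIs in the first group and 11282.5, 12359 and 8099 in the others. The part of depth in the split and in these ratios was not tested. The lower class II sum of all mgR fibroblasts was not seen within either group. The first group was 5.93% (4.97-7.0) of mgR fibroblasts against 9.79% (8.20-11.6) in WT, and the part of this share in the lower sum was not tested. The 9 leukocyte genes were at 12.9, 186 and 52.9 CPM in the first group and 14.5, 52.3 and 60.2 CPM in the others, higher in mgR than in WT in both, and their part in these ratios was not tested. WT values rest on cells used in choosing the genes, and so do the comparisons with WT.

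**Figure D5:**
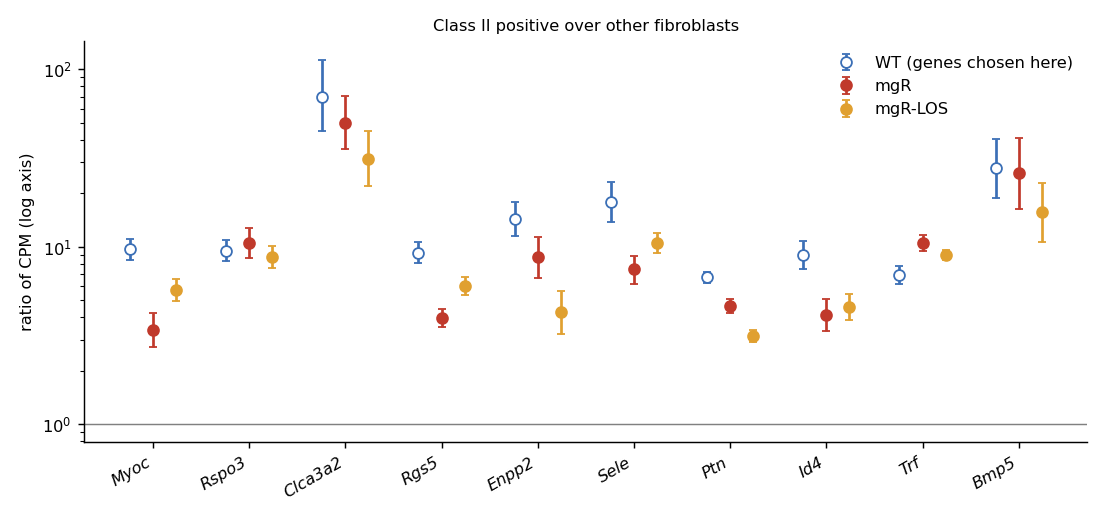
Ratio of CPM in class II positive fibroblasts with at most 1 leukocyte UMI over that in fibroblasts below 0.1%, on a log axis, for the 10 genes chosen in WT (open marks), with exact conditional binomial 95% intervals and a line at 1. In mgR and mgR-LOS all ratios lie above 1, from 3.13 to 50.

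In T cells, which in mice are generally without class II, the sum came from very few barcodes. In mgR, 6 of 115 barcodes with class II at 0.1% or more held 95.8% of the T cell class II UMIs, and in mgR-LOS 2 of 60 held 97.8%, while none of the 20 WT cells reached 0.1%. The T cells below that limit had 57.3, 89.0 and 58.9 CPM.

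Over the 20 pairs of cell class and library with at least 20 cells, the class II sum on the log2(CPM + 1) scale had Pearson r of 0.93 (*H2-DMb1*) to 1.00 (*Cd74*) with its own members and 0.97 with *Ciita*. Among the other genes at 20 CPM or more in 1 of these populations, 10043 with the members, the closest, the first 6 of them closer than *H2-DMb1*, were *Gm42031* (0.94), *Lat2* (0.94), *Pkib* (0.94), *Cd86* (0.94), *Pld4* (0.93), *Cd83* (0.93), *Ms4a6c* (0.92), *P2ry10b* (0.91), *Cd180* (0.91) and *Cysltr1* (0.91). *Cd86* is a costimulatory ligand, *Cd83* a surface protein of activated dendritic and B cells, and *Cd180* a Toll-like receptor relative on B cells and myeloid cells. The 20 populations share libraries and cell lineages, so these values describe a pattern and carry no test.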

How the data were processed

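Aortic cells of 3 groups were profiled with the 10x Genomics 3′ v3.1 chemistry, 1 library per group, from 3 (WT), 3 (mgR) and 4 (mgR-LOS) pooled mice. The deposited files hold raw UMI counts per gene and barcode, which the authors made with Cell Ranger. The file headers name version 5.0.1 for WT and mgR and 6.0.1 for mgR-LOS, and the submitters' processing notes name 6.0.1 and mm10 for all 3. Part of the differences between mgR-LOS and the others may therefore include the software version, which was not tested. Deposited barcodes had at least 500 UMIs in each of WT and mgR and 501 in mgR-LOS.

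The 7 genes, the gene lists and the tests were chosen with earlier results of these data known, and the gate thresholds after marker counts per barcode were seen. The filter kept 600 to 5000 genes per barcode and a mitochondrial share of up to 10%. Macrophages needed 6 of 10 markers including 2 of the 3 C1q genes, monocytes 3 of 8, dendritic cells 2 of 9, B and T cells 4 of 8, neutrophils 4 of 7, ECs 4 of 8, SMCs 6 of 7 and 2% of UMIs, and fibroblasts 6 of 8 and 1% of UMIs. Each class also had limits on markers of other lineages (in most classes SMC markers under 1% and fibroblast markers under 0.5% of UMIs, and fewer than 3 markers of ECs, B or T cells). UMIs were summed per class and library and given as CPM. Doublets were scored per library against 25% artificial doublets (2000 variable genes, 10 components, neighborhoods of 1% of the barcodes), with an assumed rate of 0.8% per 1000 barcodes, and were kept in the main values. For shares of cells with a UMI and correlations over cells, cells were thinned to 1000 UMIs.

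Genes were named by a fixed rule, namely the 7 genes, an antigen presentation list of 33 genes, the 10 genes most correlated with the class II sum over populations of at least 20 cells, the 5 most and 5 least correlated over mgR macrophages, and the C1q genes and *Lyz2* as a reference for free RNA. *Lyz2* was at 3.17, 15.4 and 20.7 CPM in SMCs of WT, mgR and mgR-LOS. The 10 genes of class II positive fibroblasts were added after seeing the data. A difference was counted when it reached 1.5-fold in genes at 20 CPM or more (10 CPM in SMCs and fibroblasts) in either library. Gene positions are of GENCODE vM21 on GRCm38, and promoter sequences of RefSeq on GRCm38.p6. The ratios and their intervals were tested on simulated counts, and the thinning on barcodes of the mgR library. The simulated counts held no differences between cells or mice, so that test concerns counting error only. The other procedures were not tested in this way. Python 3.11.15 was used with numpy 2.4.6, scipy 1.17.1, pandas 2.3.3, scikit-learn 1.9.0 and matplotlib 3.10.9. Other limits on genes and mitochondrial UMIs, doublet removal, stricter gates, another CPM denominator and another summary of the genes were tried as alternatives.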

Additional observations from a re-analysis of the deposited data

Results flagged for a closer look

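In some comparisons cell classes moved in opposite directions, and with 1 library per group the difference between the classes was not tested. Between mgR and WT the class II sum had ratios of 0.473 in macrophages and 0.483 in ECs, both below 1, and of 4.39 in SMCs. Between mgR-LOS and mgR it had ratios of 0.337 in ECs and 1.54 in fibroblasts. The mgR/WT ratio in SMCs was 2.10 without class II positive barcodes that had 2 or more leukocyte UMIs. Without limits on other lineages it was 5.89 in SMCs and 0.749 in ECs. The sizes of these ratios thus depended on the barcodes included, though their directions did not. The barcodes that fell in no cell class also carried class II UMIs, at 1016 CPM in WT, 2325 CPM in mgR and 2097 CPM in mgR-LOS, or 7.83%, 12.6% and 19.4% of the class II UMIs of the barcodes kept.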

How the results depend on the processing

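No paired analysis was possible because each group is 1 library of pooled mice, and for the same reason no replicate could be left out. Of 83 alternative values of the class II sum ratios, 77 stayed on the same side of 1 as the values reported and 35 moved beyond the counting interval. For 9 of the 12 ratios every alternative stayed within 1.5 times the value reported. For the single genes in macrophages, all 35 mgR/WT alternatives were below 1 (0.428 to 0.690), and the mgR-LOS/mgR alternatives ranged from 0.896 to 1.24. The cause of the moves listed here was not tested. With stricter gates the ratio was 0.463 for mgR/WT and 1.02 for mgR-LOS/mgR in macrophages, and for mgR-LOS/mgR 0.808 in monocytes, 0.982 in B cells and 1.19 in fibroblasts. Without called doublets it was 2.17 and 1.62 in SMCs and 0.596 and 2.0 in fibroblasts (mgR/WT and mgR-LOS/mgR), and 0.597 for mgR-LOS/mgR in B cells. With at least 200 genes and no upper limit it was 0.403 and 0.422 in ECs, 5.02 and 0.964 in SMCs, and 1.61 for mgR-LOS/mgR in fibroblasts. With at most 5% mitochondrial UMIs it was 0.506 for mgR/WT in B cells, 1.23 for mgR-LOS/mgR in SMCs and 0.816 for mgR/WT in fibroblasts. Without mitochondrial, ribosomal protein and globin genes in the denominator it was 1.03 for mgR-LOS/mgR in macrophages. As the mean of the log ratios of the genes it was 0.517 and 1.07 in macrophages, 0.934 in B cells, 0.547 in ECs and 3.33 in SMCs (all mgR/WT but the second) and 1.46 for mgR-LOS/mgR in fibroblasts, and gave no value for mgR/WT in monocytes, where WT had zeros. For the following, chosen after seeing the data, the values are mgR/WT and mgR-LOS/mgR. Without limits on other lineages it was 0.749 and 0.262 in ECs, 5.89 and 1.30 in SMCs and 1.12 and 1.34 in fibroblasts, and without class II positive barcodes that had 2 or more leukocyte UMIs 2.10 and 1.39 in SMCs and 0.550 and 1.64 in fibroblasts. Low counts limited *Ciita* most, with 18 or fewer UMIs in each library in ECs, SMCs and fibroblasts, and few WT monocytes and B cells limited their comparisons.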
